A study of Mus musculus with 7 samples.

Results

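Scavenger receptors are the cell surface and secreted proteins with which macrophages bind modified lipoproteins, bacterial surfaces, apoptotic cells and extracellular debris. The set described here held 10 genes of the 23337 listed per library, named by symbol in a rule that uses no measured value. The genes were chosen with earlier results of these data known, so member counts set beside all tested genes are descriptive. The members were the class A receptors Marco, Msr1 and Colec12, the class B proteins Cd36, Scarb1 and Scarb2, and the class E receptor Olr1. The others were the class H receptor Stab1, the secreted protein Cd5l and the phosphatidylserine receptor Havcr2. All 10 were matched by symbol, and all 10 passed the filter of a mean of at least 1 TPM (transcript abundance scaled to length and to a total of 1000000 per library), which 11096 genes passed.

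RNA sequencing was done on mouse bone marrow-derived macrophages, grown from marrow of wild-type (WT) and Tgm2 knockout (KO) mice aged 6 to 8 weeks and labelled male. All cultures received M-CSF, the growth factor that turns marrow cells into macrophages, at 25 ng/ml for 7 days. The unstimulated state (M0) received nothing more, and the LPS state received bacterial lipopolysaccharide at 10 ng/ml for 6 hours. There were 2 WT M0, 1 KO M0, 2 WT LPS and 2 KO LPS libraries, 7 in all. The product of Tgm2, transglutaminase 2, joins proteins by covalent crosslinks. The labels do not give how the knockout was made, and they do not say whether libraries of a group came from separate mice or cultures, so the p-values measure only the spread between these libraries, which may be technical.

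Macrophages take up material through these receptors in several ways. Class A receptors bind polyanionic ligands such as bacterial lipids and oxidised or acetylated low-density lipoprotein (LDL). Class B proteins carry out lipid exchange and uptake at the plasma membrane and in lysosomes, and the remaining members clear matrix fragments, oxidised LDL or dying cells. Lipopolysaccharide acts through Toll-like receptor 4 and remodels the set of uptake receptors that a macrophage expresses.

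Each library summed to 1000000 TPM, with 13468 to 14552 genes above 0, and since TPM keep no read counts the depth behind each value is unknown. Tgm2, the targeted gene, stood at 433 and 368 TPM in unstimulated wild type and 50.7 in unstimulated knockout libraries, and after LPS at 233 and 199 in wild type and 19.4 and 19.2 in the knockout. All 8 macrophage markers (Adgre1, listed as Emr1, with Csf1r, Cd68, Itgam, Fcgr1, Mertk, Lyz2 and Cd14) exceeded 1 TPM in every library. Their summed level lay between 38580 and 51310 TPM. Lyz2 made up most of it, at 28490 to 42150 TPM, so the sum says little of the other markers. Both WT LPS libraries stood apart from their label: Xist, which is transcribed from the inactive X of female cells, read 47.2 and 55.4 TPM there and 0 to 0.00535 TPM in the other 5 libraries. The Y-linked genes were also present there, at lower levels than elsewhere: Ddx3y read 20.3 and 23.5 TPM in WT LPS and 32.1 to 56.4 in the other 5, and Eif2s3y 32.8 and 37.2 against 66.1 to 78.3. In every comparison that uses WT LPS, this difference cannot be told apart from the effect of genotype or LPS. The comparison of KO LPS with KO M0 does not set those libraries against others.

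Promoter sequences show where the genes with the largest LPS changes start and which short motifs lie there. RefSeq (GRCm38.p6) gave a promoter window of 250 bases before to 50 after the start site for 7 of the 10 members. The 3 with the largest changes under LPS in the knockout, Marco (chr1:120504975-120505274, minus strand), Cd5l (chr3:87357631-87357930, plus strand) and Havcr2 (chr11:46454681-46454980, plus strand), are printed 5′ to 3′ on the strand of the gene, with motif matches in capitals.

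Marco: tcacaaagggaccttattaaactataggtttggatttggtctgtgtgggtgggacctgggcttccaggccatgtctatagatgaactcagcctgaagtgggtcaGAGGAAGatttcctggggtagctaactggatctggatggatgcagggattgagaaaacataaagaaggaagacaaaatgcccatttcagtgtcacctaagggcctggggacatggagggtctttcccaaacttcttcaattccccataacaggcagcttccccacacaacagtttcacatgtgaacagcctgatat

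Cd5l: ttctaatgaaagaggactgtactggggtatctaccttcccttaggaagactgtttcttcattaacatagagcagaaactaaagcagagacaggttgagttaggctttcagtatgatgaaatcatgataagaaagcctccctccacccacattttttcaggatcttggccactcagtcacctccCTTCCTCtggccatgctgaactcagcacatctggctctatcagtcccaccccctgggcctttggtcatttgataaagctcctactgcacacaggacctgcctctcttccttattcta

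Havcr2: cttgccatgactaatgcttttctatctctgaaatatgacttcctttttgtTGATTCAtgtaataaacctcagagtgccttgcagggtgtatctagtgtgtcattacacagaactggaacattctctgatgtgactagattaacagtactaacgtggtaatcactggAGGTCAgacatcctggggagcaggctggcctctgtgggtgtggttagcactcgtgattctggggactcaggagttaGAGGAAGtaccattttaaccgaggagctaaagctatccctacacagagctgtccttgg

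The capitals in Marco and Cd5l mark the motif GAGGAAG of PU.1, a transcription factor of macrophages, at positions -146 to -140 and, on the opposite strand, -67 to -61, counted from the start site as position 0. Havcr2 held the same motif at -8 to -2, an AP-1 motif TGANTCA at -200 to -194 and the nuclear receptor motif AGGTCA at -84 to -79. Both strands were searched for 7 motifs that do not overlap in these matches. The PU.1 motif was found in 3 of the 7 member windows and in 13.6% of 32851 windows in the table. AP-1 was found in 2 (Havcr2 and Olr1) against 7.81% of all windows, AGGTCA in 3 (Cd36, Havcr2 and Olr1) against 16.3%, and the antioxidant response motif TGACNNNGC in 1 (Scarb2) against 12.4%. The other 3 motifs were the NF-kappaB-like core GGAANTTCC, GAAANNGAA of interferon regulatory factors and TTGCNNAA of C/EBP proteins. They were in none of the 7, and in 0.928%, 8.56% and 10.8% of all windows. No other NF-kappaB form was searched. A match here is a description of the letters and not a binding site. Base composition set Scarb2 apart, with 67.3% G and C and 28 CpG dinucleotides, where Marco and Cd5l had 47.3% and 46.3% and no CpG, and the median over all windows was 52.7% G and C.

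LPS changed most of the 10 genes in both genotypes, and 2 of them rose. In WT LPS against WT M0, 2 members rose (Marco and Msr1, against 15.0% of all tested genes called higher) and 5 fell (Cd5l, Stab1, Havcr2, Colec12 and Scarb2, against 29.6% called lower). In KO LPS against KO M0, Marco and Msr1 rose (13.8% of tested genes were called higher) and 7 fell, all but Scarb2 of the rest (24.3% were called lower). Between the LPS states, Marco and Stab1 were higher in KO LPS than in WT LPS (4.59% of tested genes were called higher) and Cd36, Cd5l, Scarb1, Olr1 and Havcr2 were lower (2.58% were called lower). Between the unstimulated states none of the 10 passed, where 0.00901% of tested genes did, that is 1 gene, Tgm2. None of the 10 had an unadjusted p under 0.05 there, the smallest being 0.219 for Marco (limma). Calls are at an adjusted p below 0.05 by limma with Benjamini-Hochberg adjustment over all 11096 tested genes, and every fitted change is a difference of log2(TPM + 1), a scale that shrinks the changes of weakly expressed genes.

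**Figure D1:**
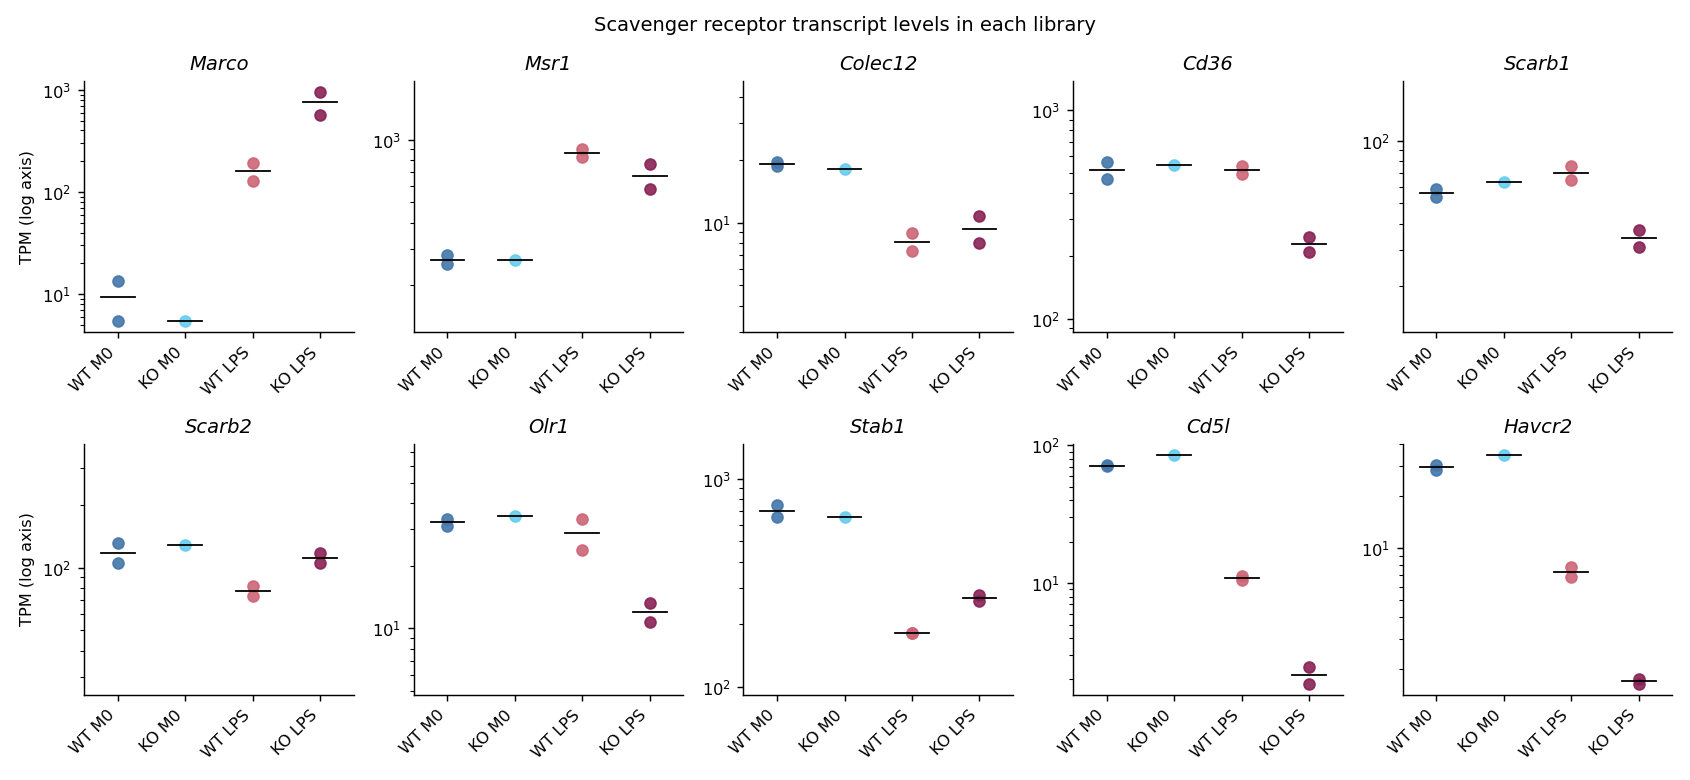
Transcript level of each of the 10 genes (vertical axis, TPM, log scale with its own range per gene) in the 4 groups, where each point is 1 library and each line the group mean. Marco stands at 570 and 943 TPM in KO LPS against 129 and 194 in WT LPS, while Cd5l and Havcr2 lie lowest in KO LPS.

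Marco, a class A receptor with a collagen-like stalk that binds bacteria and inhaled particles, showed the largest rise. It stood at 13.4 and 5.45 TPM in unstimulated wild type and 5.46 in unstimulated knockout libraries, and after LPS at 194 and 129 in wild type and 943 and 570 in the knockout. The LPS libraries all lay above the unstimulated ones, the KO LPS libraries lay above the WT LPS libraries, and the KO M0 value lay within the WT M0 range. Its mean rose 17.1-fold in wild type, from 9.42 ± 5.62 to 161 ± 46.0 TPM (SD, n = 2 each), a change of 4.04 on the log2 scale (SE 0.36, limma adjusted p 9.37e-06). In the knockout it rose 139-fold to 757 ± 264 TPM (SD, n = 2), a change of 6.83 on the log2 scale (SE 0.44, limma adjusted p 1.78e-06), the KO M0 side being a single library. KO LPS exceeded WT LPS by 2.21 (SE 0.36, limma adjusted p 0.00439), a 4.69-fold ratio of means. Replicates of Marco were far apart for this set, the higher library of a group being 2.46 times the lower in WT M0, 1.51 times for WT LPS and 1.66 times for KO LPS. With no filter on low values the difference between the LPS states missed the threshold (limma adjusted p 0.123).

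By the share of tested genes with a lower mean level, Marco moved from 29.4% in WT M0 and 19.2% in KO M0 to 91.1% for WT LPS and 98.2% for KO LPS. It went from the lowest of the 10 in every unstimulated library to the highest or second highest in KO LPS. The genes with the most similar pattern over the 7 libraries were Ccl3, a chemokine, at a root mean square difference of 0.561 log2 units after centring, and Ptgs2, the inducible prostaglandin synthase, at 0.612. Ccl3 stood at 92.4 and 76.2 TPM in unstimulated wild type and 70.7 in unstimulated knockout libraries, and after LPS at 2987 and 1697 in wild type and 5496 and 3230 in the knockout.

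Msr1 encodes the class A macrophage receptor for acetylated and oxidised LDL. It stood at 253 and 278.5 TPM in unstimulated wild type and 265 in unstimulated knockout libraries, and after LPS at 827 and 900 in wild type and 581 and 763 in the knockout. The unstimulated libraries of both genotypes lay together, all LPS libraries lay above them, and the KO LPS libraries lay below the WT LPS ones. The wild-type rise was 3.25-fold (log2 fold change 1.70, SE 0.17, limma adjusted p 2.18e-05) and the knockout rise 2.53-fold (1.32, SE 0.21, limma adjusted p 0.000638). KO LPS was 0.37 lower than WT LPS on the log2 scale (log2 fold change -0.37, SE 0.17), which did not pass (limma adjusted p 0.256). Msr1 was thus called upward with Marco under LPS in both genotypes, without a called difference between the genotypes. Its closest gene in pattern was Fbxl5, an iron-sensing ubiquitin ligase subunit, at 0.08 log2 units.

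Colec12, a collectin-type class A receptor that binds sugars and oxidised LDL, fell under LPS. It stood at 18.7 and 19.4 TPM in unstimulated wild type and 18.0 in unstimulated knockout libraries, and after LPS at 7.31 and 8.89 in wild type and 7.99 and 10.7 in the knockout. The LPS libraries all lay below the unstimulated ones, and WT LPS and KO LPS overlapped. Its mean was 2.35-fold lower in WT LPS than in WT M0 (log2 fold change -1.15, SE 0.20, limma adjusted p 0.00111) and 1.93-fold lower in KO LPS than in KO M0 (-0.89, SE 0.25, limma adjusted p 0.0171). The knockout call was lost without KO LPS replicate 1 (limma adjusted p 0.086) and when weakly expressed genes were kept in the fit (0.0523). Of the 3 class A genes, Marco and Msr1 thus rose under LPS and Colec12 fell.

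Among the class B genes, Cd36 fell under LPS in the knockout and was not called in wild type. Cd36 takes up long-chain fatty acids and oxidised LDL. It stood at 465 and 566 TPM in unstimulated wild type and 545 in unstimulated knockout libraries, and after LPS at 493 and 541 in wild type and 209.5 and 248 in the knockout. The KO LPS libraries lay below all 5 others, which overlapped one another. In wild type the fitted change was 0.01 (SE 0.17, limma adjusted p 0.969), with means of 516 ± 71.7 and 517 ± 34.5 TPM (SD, n = 2 each). In the knockout Cd36 fell 2.38-fold (-1.25, SE 0.20, limma adjusted p 0.000767), and KO LPS lay 2.26-fold below WT LPS (-1.18, SE 0.17, limma adjusted p 0.00179).

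Scarb1, the receptor that exchanges cholesterol with high-density lipoprotein, had a like course. It stood at 53.5 and 58.4 TPM in unstimulated wild type and 63.6 in unstimulated knockout libraries, and after LPS at 65.0 and 75.6 in wild type and 37.4 and 30.8 in the knockout. Here too the KO LPS libraries were the lowest of the 7, and the WT LPS libraries were the highest. The wild-type difference did not pass (0.32, SE 0.17, limma adjusted p 0.155), although with median-ratio scaling of the libraries it did (limma adjusted p 0.0173). The knockout fall was 1.87-fold (-0.89, SE 0.21, limma adjusted p 0.00753), and KO LPS lay 2.06-fold below WT LPS (-1.03, SE 0.17, limma adjusted p 0.00512). Without WT LPS replicate 2 the difference between the LPS states was not called (limma adjusted p 0.0589).

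Scarb2, the lysosomal member of class B that carries glucocerebrosidase to lysosomes, moved otherwise. It stood at 105 and 132 TPM in unstimulated wild type and 129 in unstimulated knockout libraries, and after LPS at 81.9 and 73.1 in wild type and 106 and 118 in the knockout. The WT LPS libraries were the lowest of the 7, and the KO LPS libraries lay within the WT M0 range. It fell 1.52-fold in wild type (-0.59, SE 0.17, limma adjusted p 0.0157), and this call was lost with median-ratio scaling (0.106), without WT M0 replicate 2 (0.0982) and without WT LPS replicate 2 (0.107). The knockout change of -0.21 (SE 0.21, limma adjusted p 0.456) and the difference between the LPS states of 0.52 (SE 0.17, limma adjusted p 0.107) did not pass.

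Olr1 encodes the lectin-like receptor for oxidised LDL. It stood at 31.1 and 33.5 TPM in unstimulated wild type and 34.4 in unstimulated knockout libraries, and after LPS at 23.8 and 33.5 in wild type and 10.7 and 13.3 in the knockout. The KO LPS libraries were the lowest, and the WT LPS range ran into the WT M0 range. The wild-type change of -0.19 (SE 0.21, limma adjusted p 0.489) did not pass, while the knockout fall was 2.87-fold (-1.45, SE 0.25, limma adjusted p 0.00121). KO LPS lay 2.39-fold below WT LPS (-1.18, SE 0.21, limma adjusted p 0.00623). That call was lost without WT LPS replicate 2 (0.0626) and when weakly expressed genes were kept in the fit (0.0756). Of the 45 pairs among the 10 genes, Cd36 and Olr1 had the most similar pattern over the libraries (root mean square difference 0.142 log2 units), followed by Cd36 and Scarb1 (0.237).

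Stab1, stabilin-1, which clears matrix fragments, acetylated LDL and apoptotic cells, was the highest of the 10 genes in every unstimulated library. It stood at 658 and 743 TPM in unstimulated wild type and 652 in unstimulated knockout libraries, and after LPS at 182 and 181 in wild type and 278 and 258 in the knockout. The LPS libraries all lay below the unstimulated ones, and the KO LPS libraries lay above the WT LPS ones. The fall was 3.86-fold in wild type (-1.94, SE 0.15, limma adjusted p 3.16e-06) and 2.44-fold in the knockout (-1.28, SE 0.18, limma adjusted p 0.00031). KO LPS lay 1.48-fold above WT LPS (0.56, SE 0.15, limma adjusted p 0.0488), and this call held in 2 of 13 alternatives, with limma adjusted p between 0.0349 and 0.262.

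Stab1 is also a gene of sinusoidal endothelium, and the summed level of stromal and endothelial markers was lower after LPS too. Of the endothelial genes, Cdh5 and Stab2 were lower after LPS as well, while Pecam1 rose in the knockout. The summed level of the 9 stromal and endothelial markers was 39.3 to 48.2 TPM in WT M0, 27.4 in KO M0, 0.544 to 1.17 in WT LPS and 6.02 to 6.86 in KO LPS. The collagen gene Col1a1 and the matrix gene Sparc were listed at 0 in both WT LPS libraries. The endothelial cadherin Cdh5 read 1.215 and 2.381 TPM in WT M0 and 1.677 in KO M0. After LPS it read 0.433 and 0.121 in wild type and 0.634 and 0.423 in the knockout. Stab2, stabilin-2, read 0.638 and 0.840 TPM in WT M0 and 0.761 in KO M0. After LPS it read 0 and 0.0169 in wild type and 0 in both knockout libraries. Neither Cdh5 nor Stab2 passed the filter. Of the 4 that passed the filter, 3 fell in wild type under LPS, beside 29.6% of all tested genes. All 4 were higher in KO LPS than in WT LPS, beside 4.59%. In the knockout 3 fell and 1 rose under LPS, beside 24.3% and 13.8%. The 1 that rose was Pecam1, at 0.676 TPM in KO M0 and 2.12 and 2.30 in KO LPS (log2 fold change 0.94, SE 0.28, limma adjusted p 0.0216), where Stab1 fell. Pecam1 passed the filter through KO LPS, the only group where it exceeded 1 TPM. The collagen genes Col1a1 and Col1a2 and the matrix gene Sparc passed through their unstimulated levels. The filter thus partly fixed these counts, which cannot be read against the shares of all tested genes. The part of the stromal and endothelial markers in the Stab1 and Colec12 differences was not tested. In these bulk libraries, fewer cells of a type cannot be told apart from less RNA per cell.

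Cd5l, a secreted protein of tissue macrophages that binds lipids and microbial surfaces, showed the largest fall. It stood at 71.8 and 71.1 TPM in unstimulated wild type and 85.0 in unstimulated knockout libraries, and after LPS at 11.2 and 10.6 in wild type and 2.45 and 1.87 in the knockout. No 2 groups overlapped, the higher replicate being 1.01 times the lower in WT M0, 1.06 times in WT LPS and 1.31 times in KO LPS. It fell 6.55-fold in wild type (-2.61, SE 0.18, limma adjusted p 1.69e-06) and 39.4-fold in the knockout (-4.77, SE 0.22, limma adjusted p 2.62e-07). KO LPS lay 5.06-fold below WT LPS (-1.92, SE 0.18, limma adjusted p 0.000171), and this call was kept in 13 of 13 alternatives. Its share of tested genes with a lower level went from 80.3% in WT M0 to 37.4% for WT LPS and 10.3% for KO LPS. The most similar genes were Atp6v0d2, a subunit of the vacuolar proton pump (0.287 log2 units), and Cd300lb, an activating immune receptor (0.378).

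Markers of tissue-resident macrophages differed among themselves, and Folr2 among them changed in the same directions as Cd5l. Their summed level was 323 to 393 TPM in WT M0, 390.1 in KO M0, 208 to 293 in WT LPS and 266 to 316 in KO LPS, with Clec4f, a Kupffer cell marker, at 0 in all 7 libraries. Siglec1, a sialic acid receptor, and Folr2, a folate receptor, made up most of that sum. Folr2 stood at 152 and 131 TPM in unstimulated wild type and 145 in unstimulated knockout libraries, and after LPS at 67.3 and 41.9 in wild type and 25.7 and 27.5 in the knockout. It fell in both genotypes and was lower in KO LPS than in WT LPS (-0.97, SE 0.22, limma adjusted p 0.0229), as Cd5l was. Siglec1 read 221 and 273 TPM in the KO LPS libraries and 196 and 135 in the WT LPS libraries, and did not pass in any comparison. Of the 4 of 8 that passed the filter, 2 fell under LPS in each genotype (Folr2 and Cd163), beside 29.6% and 24.3% of all tested genes, and 2 were lower in KO LPS than in WT LPS (Folr2 and Spic), beside 2.58%. Folr2, Siglec1, Pecam1 and Stab2 were named after their values were seen, and the part of these markers in the Cd5l differences was not tested.

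Havcr2 encodes TIM-3, a receptor for phosphatidylserine on dying cells that also acts as an inhibitory receptor on T cells and myeloid cells. It stood at 28.3 and 30.4 TPM in unstimulated wild type and 34.5 in unstimulated knockout libraries, and after LPS at 7.75 and 6.82 in wild type and 1.65 and 1.76 in the knockout. As for Cd5l, the groups did not overlap and KO LPS was lowest. It fell 4.03-fold in wild type (-1.87, SE 0.19, limma adjusted p 2.03e-05) and 20.2-fold in the knockout (-3.71, SE 0.23, limma adjusted p 1.3e-06), and KO LPS lay 4.27-fold below WT LPS (-1.61, SE 0.19, limma adjusted p 0.000554). The call between the LPS states was kept in 13 of 13 alternatives. The summed level of 6 T and NK cell markers was 1.28 to 1.54 TPM in WT LPS and 1.21 to 1.98 in KO LPS, and 12.0 to 15.3 in the unstimulated libraries, where Cd4 made up nearly all of it. The other 5 of these markers lay below 1 TPM in every library.

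**Figure D2:**
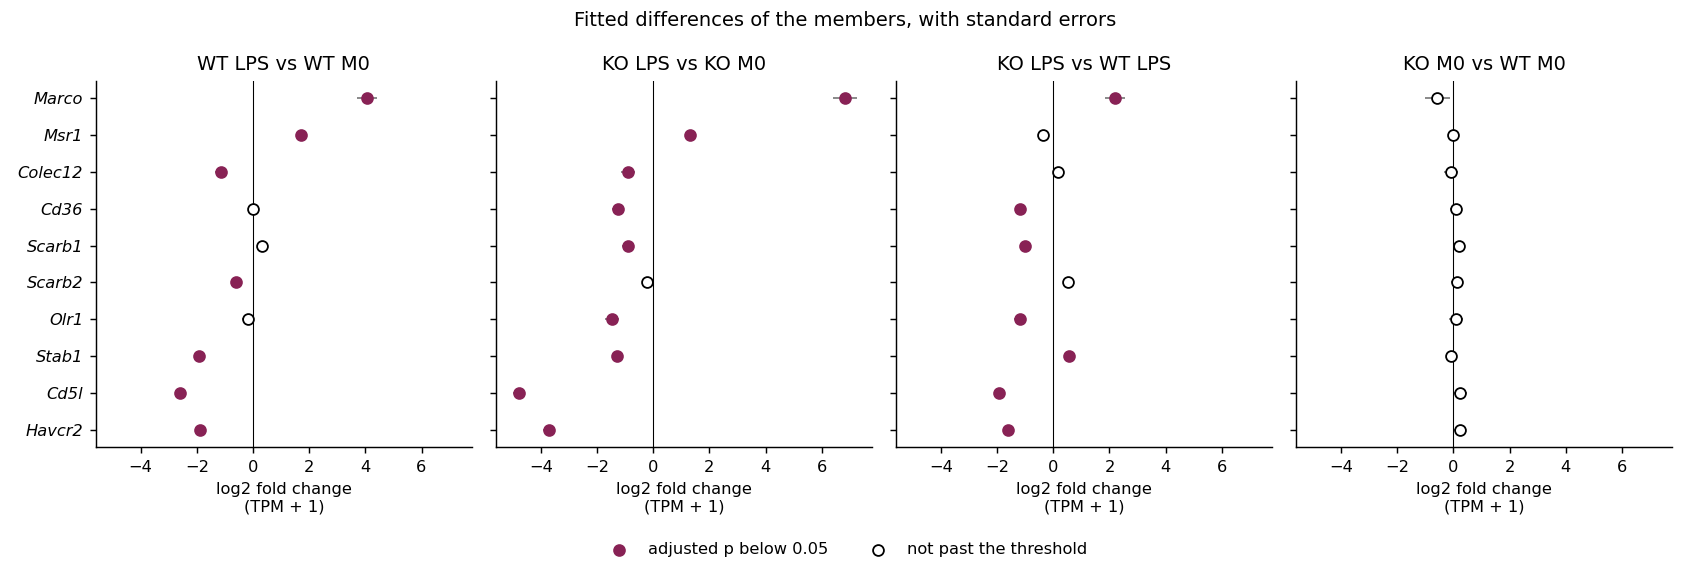
Fitted log2 fold change of each gene (horizontal axis, log2 of TPM + 1) with its standard error in 4 comparisons, where filled points have a limma adjusted p below 0.05. In KO LPS vs WT LPS, 2 filled points lie to the right of 0 (Marco and Stab1) and 5 to the left, and in KO M0 vs WT M0 all 10 are open.

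The size of the LPS change itself was compared between genotypes with the interaction term, the knockout change minus the wild-type change. It passed for 4 of the 10 genes, where 1.37% of tested genes passed in either direction. Marco rose further in the knockout by 2.78 log2 units (SE 0.57, limma adjusted p 0.0460). Cd5l fell further, at -2.17 (SE 0.29, limma adjusted p 0.00836), as did Havcr2 at -1.84 (SE 0.29, limma adjusted p 0.0167). Cd36, not called in wild type, differed by -1.26 (SE 0.26, limma adjusted p 0.0483). Scarb1 at -1.21 (SE 0.27, limma adjusted p 0.0672) and Olr1 at -1.27 (SE 0.33, limma adjusted p 0.113) did not pass, although their values lay beside that of Cd36. Msr1, Scarb2, Stab1 and Colec12 lay between -0.37 and 0.66 and did not pass.

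These 4 calls rest on few libraries, since the term includes the single KO M0 library. Over 10 alternatives the call was kept 8 times for Cd5l, 5 times for Havcr2, 3 times for Marco and not once for Cd36. Without WT M0 replicate 1 none of the 4 was called.

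**Figure D3:**
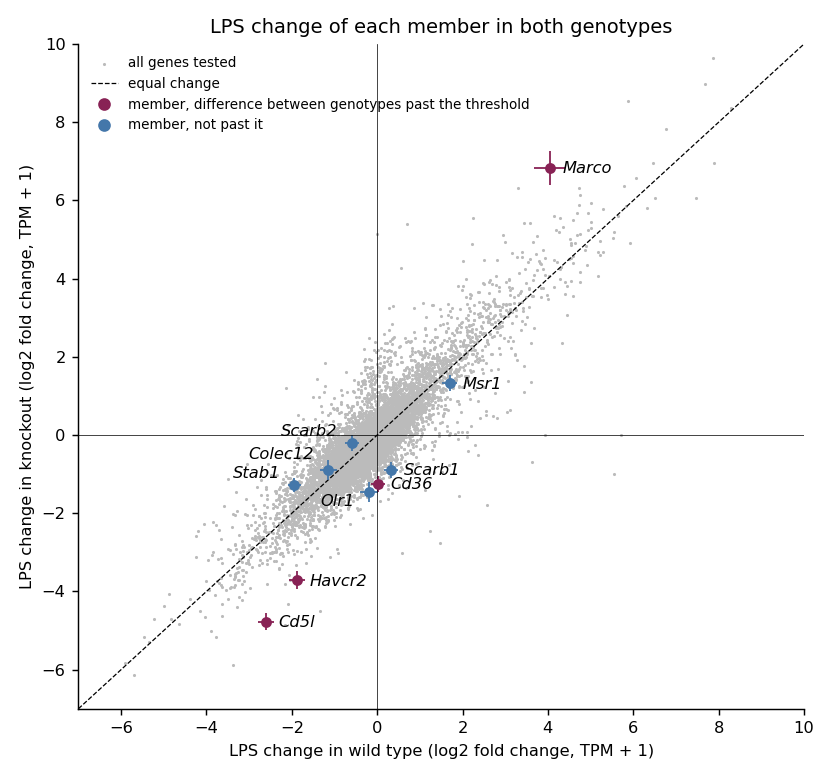
LPS change in wild type (horizontal axis) against LPS change in the knockout (vertical axis), both as log2 fold change of TPM + 1, for all tested genes (grey) and the 10 scavenger receptor genes (coloured, with standard errors). Marco lies above the line of equal change at 4.04 and 6.83, and Cd5l and Havcr2 lie below it at -2.61 and -4.77 and at -1.87 and -3.71.

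The median log2 fold change over the 10 genes, beside that over all tested genes, was -0.39 against -0.21 in WT LPS vs WT M0, -1.07 against -0.24 in KO LPS vs KO M0, -0.70 against 0.03 in KO LPS vs WT LPS and 0.09 against 0.06 in KO M0 vs WT M0. TPM share a common total, and the median of all genes depended on the scaling: median-ratio scaling moved it from -0.21 to 0.01 for wild-type LPS and from -0.24 to -0.01 for knockout LPS. Under that scaling the calls over all genes were 2485 higher and 2288 lower for wild-type LPS, in place of 1665 and 3284, and 2110 and 1849 for knockout LPS, in place of 1533 and 2700. The 7 member calls in wild type became 3 higher and 4 lower, Scarb1 entering and Scarb2 leaving, and the 9 in the knockout stayed the same genes. For KO LPS vs WT LPS, an alternative added after the data were seen, quantile normalization, called 386 genes higher and 332 lower in place of 509 and 286, and 1 member higher and 5 lower in place of 2 and 5.

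By level rather than change, KO LPS and WT LPS libraries did not overlap for 9 of the 10 genes, 3 higher (Marco, Scarb2 and Stab1) and 6 lower, with Colec12 overlapping. The KO LPS libraries lay wholly above the WT LPS ones for 28.7% of tested genes and wholly below for 21.0%. WT LPS and WT M0 were separate for 8 members, 3 higher and 5 lower, where 25.0% of tested genes were wholly higher and 48.4% wholly lower. KO M0 lay outside the WT M0 range for 6 members, 4 higher and 2 lower, where 36.2% of tested genes lay above it and 24.0% below. Separation of the libraries is thus common over all genes, and in these last comparisons the share of members is near that background.

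The makeup of the set changed more than its sum. The 10 genes reached a sum of 1697 and 1937 TPM in unstimulated wild type and 1832 in unstimulated knockout libraries, and after LPS at 1892 and 1960 in wild type and 2178 and 2014 in the knockout. TPM are scaled by transcript length, so levels can be set side by side between genes. Stab1 made up 38.8% and 38.3% of the sum in WT M0 and 35.6% in KO M0, and led in all 3. In WT LPS it fell to 9.60% and 9.25% while Msr1 led with 43.7% and 45.9%. In KO LPS Marco held 43.3% and 28.3%, against 10.2% and 6.57% in WT LPS, and Msr1 held 26.7% and 37.9%.

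Class A genes together made up 15.7% to 16.8% of the summed level in the unstimulated libraries, 52.9% and 54.3% after LPS in wild type and 66.7% and 70.4% after LPS in the knockout. Class B genes made up 36.7% to 40.2% unstimulated, 33.8% and 35.2% after LPS in wild type and 16.2% and 19.7% after LPS in the knockout. The class B share of WT LPS thus lay just under the unstimulated range, and in KO LPS well below it. These shares describe transcript and not protein at the cell surface.

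**Figure D4:**
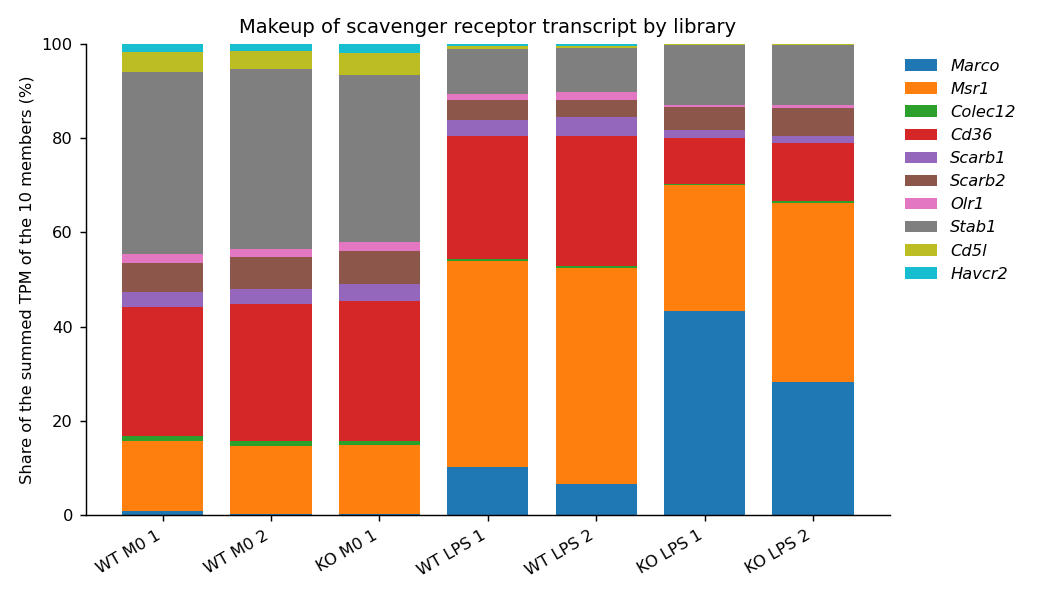
Share of each gene in the summed TPM of the 10 scavenger receptor genes (vertical axis, percent), 1 bar per library. Stab1 leads in the 3 unstimulated libraries, Msr1 in both WT LPS libraries at 43.7% and 45.9%, and Marco reaches 43.3% and 28.3% in KO LPS.

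Among the other uptake receptors tested, more fell than rose under LPS, as over all tested genes in the main fit. With median-ratio scaling, more of all tested genes were called higher than lower. Of 17 listed, 8 passed the filter, and 2 rose and 5 fell under LPS in each genotype. Their medians were -1.22 in wild type and -1.65 in the knockout, against -0.21 and -0.24 over all tested genes. Of all tested genes, 15.0% were called higher and 29.6% lower in wild type, and 13.8% and 24.3% in the knockout. Mrc1, the mannose receptor, fell by 3.17 on the log2 scale in wild type (SE 0.22) and fell by 2.70 in the knockout (SE 0.27). Scarf1, a class F scavenger receptor, rose by 2.02 in wild type (SE 0.19) and 2.38 in the knockout (SE 0.23). Ly75, an endocytic lectin receptor, rose by 2.32 in wild type (SE 0.27) and 2.53 in the knockout (SE 0.33). Lrp1, an endocytic receptor that takes part in clearing apoptotic cells, fell by 1.43 in wild type (SE 0.16) and fell by 1.59 in the knockout (SE 0.20).

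Between the LPS states, 4.59% of all tested genes were called higher in KO LPS and 2.58% lower. Clec7a, dectin-1, the receptor for fungal beta-glucans, was the 1 gene of the other uptake receptors that differed there. It stood at 171 and 233 TPM in unstimulated wild type and 238 in unstimulated knockout libraries, and after LPS at 86.8 and 97.5 in wild type and 22.5 and 30.8 in the knockout. Like Cd5l and Havcr2, it was low after LPS in wild type and lower in the knockout. The difference was -1.77 (SE 0.20, limma adjusted p 0.000554), and its interaction term was -2.02 (SE 0.32, limma adjusted p 0.0167).

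The lipid handling genes around Cd36, Scarb1 and Olr1 moved in mixed directions. Of 16 tested, 3 rose and 9 fell in wild type and 2 rose and 10 fell in the knockout under LPS. Their medians were -0.73 and -0.95. Over all tested genes, 15.0% were called higher and 29.6% lower in wild type, and 13.8% and 24.3% in the knockout. Acsl1, which activates long-chain fatty acids, rose by 3.99 in wild type (SE 0.15) and 3.58 in the knockout (SE 0.18). Abcg1, which exports cholesterol, fell by 3.23 in wild type (SE 0.21) and fell by 2.55 in the knockout (SE 0.25). Apoe, the apolipoprotein of macrophages, fell in both genotypes, with a change of -2.01 in wild type (SE 0.21) and -2.50 in the knockout (SE 0.25).

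Between the LPS states 2 of those 16 were higher in KO LPS and 4 were lower, beside 4.59% and 2.58% of all tested genes. Dgat2, which makes triglyceride, read 12.6 and 15.1 TPM in the WT LPS libraries and 36.7 and 40.5 in the KO LPS libraries, a difference of 1.42 (SE 0.19, limma adjusted p 0.00153). Apoe (-0.90, SE 0.21, limma adjusted p 0.0254) and the lipid droplet coat Plin2 (-0.62, SE 0.15, limma adjusted p 0.0293) were lower in KO LPS. Both lost their calls without WT LPS replicate 1 (0.193 and 0.154) and with no filter on low values (0.27 and 0.0835), among other alternatives.

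Of 14 transcription factors linked in the literature to scavenger receptor genes, 3 rose and 5 fell under LPS in wild type. In the knockout 1 rose and 4 fell, and the medians were -0.08 and -0.31. Called shares of all tested genes were 15.0% higher and 29.6% lower in wild type, and 13.8% and 24.3% in the knockout. Pparg, the nuclear receptor known to drive Cd36, stood at 27.3 and 38.7 TPM in unstimulated wild type and 33.4 in unstimulated knockout libraries, and after LPS at 0.671 and 2.04 in wild type and 0.151 and 0 in the knockout. It was low in all 4 LPS libraries of both genotypes, and its part in the Cd36 values was not tested.

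Spic, a factor of red pulp macrophages, was lower in KO LPS than in WT LPS (-0.89, SE 0.22, limma adjusted p 0.0388) and Nfkb1, an NF-kappaB subunit, was higher (0.57, SE 0.15, limma adjusted p 0.0450). Spic lost its call in 4 alternatives that leave out a WT LPS library, KO LPS replicate 2 or the filter (limma adjusted p 0.119 to 0.261). Nfkb1 was among the 3 genes nearest to Scarb2 in pattern (0.076 log2 units) and lost its call in most alternatives, with limma adjusted p up to 0.326. Ppard, a second nuclear receptor of the Pparg family, rose by 1.63 in wild type (SE 0.17) and 1.60 in the knockout (SE 0.21). Klf4 fell by 1.45 in wild type (SE 0.25) and fell by 1.84 in the knockout (SE 0.31).

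Of 20 tested ligands, adaptors and partners of the 10 proteins, 5 rose and 10 fell under LPS in wild type. In the knockout 3 rose and 10 fell, and the medians were -0.51 and -0.68. The shares of all tested genes were 15.0% higher and 29.6% lower in wild type, and 13.8% and 24.3% in the knockout. Lgals9, galectin-9, a ligand of Havcr2, rose by 2.21 (SE 0.17) and 2.50 (SE 0.21), opposite to its receptor. The complement genes C1qc and C1qb, whose proteins coat dying cells, fell in both genotypes. In the knockout they fell by 1.90 (SE 0.21) and 1.88 (SE 0.19). In wild type the changes were -2.21 (SE 0.17) for C1qc and -1.88 (SE 0.16) for C1qb. Neither gene was called between the LPS states (limma adjusted p 0.985 and 0.657). Cd81, a tetraspanin found with Cd36, stood at 107 and 126 TPM in unstimulated wild type and 123 in unstimulated knockout libraries, and after LPS at 17.5 and 17.6 in wild type and 35.6 and 25.1 in the knockout.

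Between the LPS states 2 of these partners were higher in KO LPS and 1 was lower, beside 4.59% and 2.58% of all tested genes. Fasn, fatty acid synthase, a target of Cd5l protein, read 27.2 and 36.5 TPM in the WT LPS libraries and 9.95 and 9.43 in the KO LPS libraries, a difference of -1.61 (SE 0.21, limma adjusted p 0.00128). Sparc, a ligand of stabilin-1, was listed at 0 in both WT LPS libraries and at 1.10 and 1.24 TPM in KO LPS, and its call was lost without KO LPS replicate 2 (limma adjusted p 0.0726). Cd81 passed at 0.74 (SE 0.19, limma adjusted p 0.0478) and lost its call in most alternatives, with limma adjusted p up to 0.251.

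For KO LPS vs WT LPS the medians of the 4 lists were -0.15 for other uptake receptors, -0.29 for lipid handling, -0.18 for transcription factors and 0.04 for partners, against 0.03 over all tested genes. None of their genes passed in KO M0 vs WT M0. Of the genes named here, the interaction term passed for Clec7a and for Sparc (limma adjusted p 0.0290). Both calls were lost when WT M0 replicate 1 was left out, and likewise when weakly expressed genes were kept in the fit.

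**Figure D5:**
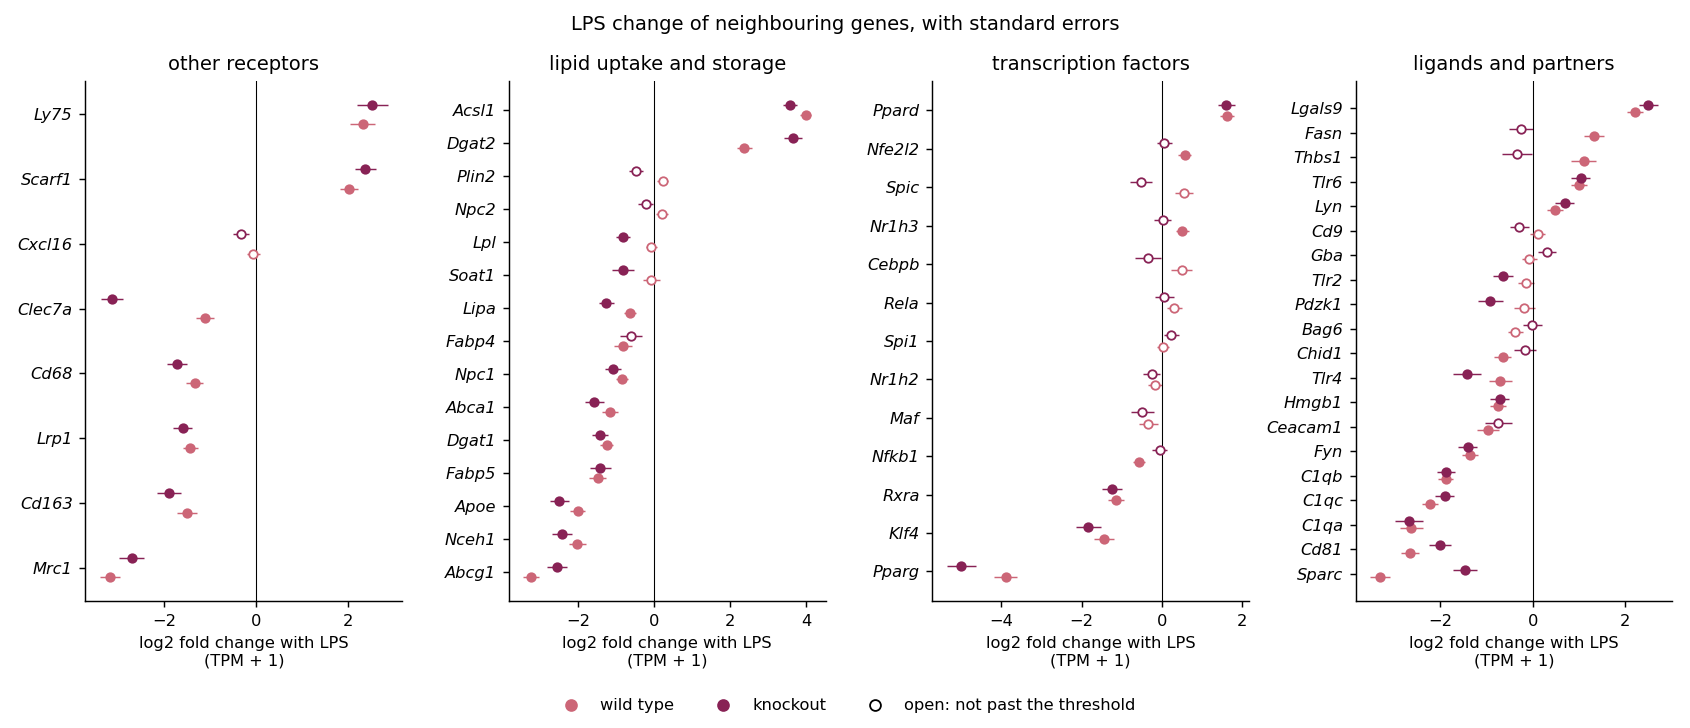
LPS change (horizontal axis, log2 fold change of TPM + 1, with standard errors) in wild type and in the knockout for tested genes of 4 lists related to the scavenger receptors, where open points have a limma adjusted p of 0.05 or more. Clec7a shows its knockout point to the left of its wild-type point, and Dgat2 to the right.

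Genes of other functions lay close to several members in pattern over the 7 libraries. Cd36 lay nearest to Kcnj2, a potassium channel gene, and Serpinb8, a protease inhibitor gene (0.062 and 0.063 log2 units). Stab1 lay nearest to Lima1, an actin-binding protein gene (0.065), and Havcr2 to Adssl1 and Cd300lb (0.169 and 0.172). Cd300lb thus stood among the 3 nearest genes of both Cd5l and Havcr2, at 237 and 281 TPM in unstimulated wild type and 258 in unstimulated knockout libraries, and after LPS at 52.9 and 60.8 in wild type and 16.6 and 18.2 in the knockout. Marco had no gene as near as the others did, its closest lying at 0.561.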

How the data were processed

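The authors deposited 1 table per library with a TPM value for each of 23337 genes; the unit was taken from the values, which sum to 1000000 in every library. Per the submitters' processing notes, mm10 was the build. Not given in the sources used here are the aligner, the quantification tool, the annotation and strandedness. limma 3.58.1 (R 4.3.3) fitted group means of log2(TPM + 1), moderating variances along the mean trend over the 7 libraries (3 residual degrees of freedom, prior 7.3). The filter kept 11096 genes whose mean was at least 1 TPM, and p-values were adjusted by Benjamini-Hochberg, with a threshold of 0.05. KO M0 has 1 library, whose spread is taken from the replicated groups. The script was tested on simulated data, which does not show that the rate of false calls in these libraries keeps to 0.05.

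The members and gene lists were chosen with earlier results of these data known. The genes named are the 10 members, Tgm2, up to 4 called genes with the smallest p per list and comparison, and the 3 genes most similar to each member (root mean square difference of centred log2 values, unnamed models left out). Alternatives were a pseudocount of 0.1, no filter, median-ratio scaling, the compared groups alone, a replicate block, each library left out, KO LPS vs KO M0 without both WT LPS libraries and, chosen after seeing the data, quantile normalization. Promoters came from RefSeq GRCm38.p6, and tables and figures from Python 3.11.15 with pandas 2.3.3 and matplotlib 3.10.9. Ly6g and Hbb-bt were not matched. Some genes of the related lists enter the counts and are not reported here by name. The neutrophil, dendritic, B, mast and erythroid marker lists summed to at most 333, 4.13, 2.11, 1.14 and 0.690 TPM in any library, and the neutrophil sum, mostly S100a8, was 208 to 333 TPM in WT LPS, 106 to 161 in KO LPS and 5.01 to 8.49 unstimulated.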

Additional observations from a re-analysis of the deposited data

Results flagged for a closer look

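The LPS change differed between the genotypes for 4 members by the interaction term, the knockout change minus the wild-type change (limma, all 7 libraries). The difference was 2.78 log2 units for Marco, -2.17 for Cd5l, -1.84 for Havcr2 and -1.26 for Cd36. Of 10 alternatives, the call was kept in 3 for Marco, 8 for Cd5l, 5 for Havcr2 and 0 for Cd36. Marco was higher in both KO LPS libraries than in both WT LPS libraries, and the other 3 were lower in both. The WT LPS libraries carry Xist and the KO M0 group is 1 library, and the part of either in these differences was not tested.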

How the results depend on the processing

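Depth is unknown and limits the low values (Marco unstimulated, Cd5l and Havcr2 in KO LPS) in a way that cannot be given as an interval. Of 590 values of the members under alternatives, 534 kept their direction and side of the threshold, 44 lost a call, 1 gained one and 11 changed sign, none of these 11 with a call. The cause of each change was not tested. The 4 interaction calls became 2 with a pseudocount of 0.1, 2 with median-ratio scaling, 2 with quantile normalization and 0 with no filter on low values, and 0 to 3 with a library left out (0 without WT M0 replicate 1). The 7 calls of KO LPS vs WT LPS became 4 with no filter, and 4 to 7 with a library left out (4 without WT LPS replicate 2). Wild-type LPS gave 6 to 7 and knockout LPS 8 to 9 with a library left out, the latter 9, the same genes, without both WT LPS libraries. With a replicate block over the WT M0, WT LPS and KO LPS libraries, both comparisons it allows kept the same 7 members, and calls over all genes were 5632 for wild-type LPS (4949 without it) and 1115 for KO LPS vs WT LPS; the numbers are not stated to pair libraries, and replicate differences correlated at 0.08 to 0.30 across genes.

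Median-ratio scaling turned Olr1 in wild type to 0.0449 and Scarb2 in the knockout to 0.0440, and quantile normalization turned Cd36 in wild type to -0.116, all uncalled before and after. With a library left out, Cd36 in wild type ran from -0.13 to 0.15 (-0.0587 without WT LPS replicate 2) and Olr1 from -0.42 to 0.0510. KO M0 vs WT M0 ran from -1.16 to 0.0026 for Marco, -0.0563 to 0.23 for Cd36, -0.0297 to 0.30 for Scarb2 and -0.0700 to 0.0682 for Msr1, and Colec12 in KO LPS vs WT LPS from -0.0126 to 0.37. Over all genes, the 795 calls of KO LPS vs WT LPS became 307 with no filter, 428 without WT LPS replicate 2, and 506 and 385 without KO LPS replicate 1 and 2. The 152 interaction calls became 92 (pseudocount 0.1), 10 (no filter), 16 and 93 (without WT M0 replicate 1 and 2) and 72 and 64 (without KO LPS replicate 1 and 2). The 1 call of KO M0 vs WT M0 became 2, 20, 40 and 6 with a pseudocount of 0.1, no filter, the compared groups alone and without WT M0 replicate 2.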
